A study of Mus musculus with 16 samples.

Results

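RNA bound to Ago2 was compared between cells transfected with miR-106b and cells transfected with a control, both labelled as engineered juxtaglomerular (JG) cells. These are 8 of the 16 libraries of the series, 4 Ago2-IP libraries for each transfection. A gene was a member when it had at least 1 CPM (gene counts scaled to a common library total) in at least 3 of the 4 libraries of either group, and 13941 of the 46078 genes counted were members. The comparison asked which transcripts were more or less abundant in the RNA-induced silencing complex once miR-106b was added, and here also how small a change these libraries could exclude at each expression level. The study describes the cells as engineered mouse cells that carry a yellow fluorescent reporter under the renin promoter. They were harvested 48 h after transfection of miR-106b or of a precursor of a miRNA that mammals lack, and both groups were trypsinized, lysed and immunoprecipitated with an antibody to Ago2. No genotype, strain or further treatment separates the groups in the labels. The other 8 libraries, of polyA RNA from cells with the same transfections, were used only where a value is set beside the Ago2-IP value of the same gene. The labels number 4 replicates per group, which the methods of the study call biological, and p-values measure the spread between these libraries.

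Ago2 is the protein that holds the guide miRNA in the RNA-induced silencing complex (RISC), and a target transcript is recognised mainly by pairing of its 3′ untranslated region (3′UTR) to the seed of the miRNA, bases 2 to 8 from its 5′ end. GW182 proteins recruited by Ago2 bring deadenylases and decapping factors to the transcript. RNA isolated with Ago2 is read as RNA held in RISC at the time of lysis, so that a transcript newly targeted by a transfected miRNA can be higher in this RNA. Renin, encoded by Ren1 in mouse, is the protease released by JG cells that starts the renin-angiotensin cascade, and cAMP signalling is its main positive control in these cells.

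miR-106b-5p belongs to a family with 1 shared seed, so its predicted sites are those of the whole family. The mature sequences, from RefSeq with build GRCm38.p6, are shown for the 6 members of the family, with the seed in capitals, because the transfected miRNA and those already in the cell would read the same sites.
miR-106b-5p: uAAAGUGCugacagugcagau
miR-106a-5p: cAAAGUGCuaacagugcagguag
miR-17-5p: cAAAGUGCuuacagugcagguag
miR-20a-5p: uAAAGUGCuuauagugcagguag
miR-20b-5p: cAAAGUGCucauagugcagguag
miR-93-5p: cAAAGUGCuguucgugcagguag

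The site that pairs with this seed is GCACTTT, called a 7mer-m8 site, or GCACTTTA, called an 8mer site, where an A follows. Sites were searched in the longest annotated 3′UTR of each gene (GENCODE M21, build GRCm38, sense strand). The windows of 30 bases shown here hold the sites of the 3 listed targets measured most precisely (Mfn2, Vegfa and Fyco1), of the 3 with the largest measured difference (Hif1a, Kat2b and E2f5) and of E2f1 and Pde3b, which the study discusses. Capitals mark the site. A match of letters is a description of the 3′UTR and not evidence of binding.
Mfn2, 8mer, chr4:147873753-147873782, minus strand: gacatttagcagagaGCACTTTAgtttttt
Mfn2, 7mer-m8, chr4:147874916-147874945, minus strand: tggccctcagctttaGCACTTTttcccact
Vegfa, 7mer-m8, chr17:46018682-46018711, minus strand: gagactcttcgaggaGCACTTTgggtccgg
Fyco1, 8mer, chr9:123789724-123789753, minus strand: cttaacagttagagtGCACTTTAattcatt
Fyco1, 7mer-m8, chr9:123789860-123789889, minus strand: ccttttccctctcaaGCACTTTttaaattt
Hif1a, 7mer-m8, chr12:73946663-73946692, plus strand: gatgtttggttttatGCACTTTgtcgctat
Kat2b, 7mer-m8, chr17:53670980-53671009, plus strand: gacttgtaataattaGCACTTTtgaaaaac
E2f5, 8mer, chr3:14606144-14606173, plus strand: gtgccttctgttttaGCACTTTAagcctat
E2f1, 7mer-m8, chr2:154559689-154559718, minus strand: cccaccctccagtctGCACTTTgatttgtt
E2f1, 7mer-m8, chr2:154560204-154560233, minus strand: gggtgggctctaactGCACTTTtggtgtcc
Pde3b, 7mer-m8, chr7:114536384-114536413, plus strand: agttctcactcctaaGCACTTTcattacaa

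Counts on genes summed to between 2579086 and 4616424 per Ago2-IP library. The 4 control libraries (3501909 or more) were all deeper than the 4 miR-106b libraries (3450269 or fewer), with an exact permutation p of 0.0286, the smallest that 4 against 4 libraries can give, and 0.186 after adjustment over the 13 library values compared. Among the other 12 values the groups also did not overlap for the mitochondrial share of counts, 2.12 to 2.20% in the control and 2.22 to 2.39% in the miR-106b libraries, with the same exact p and adjusted p. The main axis of difference between libraries did not follow the transfection. It held 64.7% of the variance over the 6416 genes whose mean reached 20 CPM, and 16 of its 50 leading genes were small nucleolar RNAs (snoRNAs). snoRNAs took 0.337% of counts in control replicate 4 and 0.218, 0.296 and 0.126% in miR-106b replicates 1, 2 and 3. They took 0.00551, 0.00659 and 0.0605% in control replicates 1, 2 and 3 and 0.0251% in miR-106b replicate 4. Gm10800, a predicted gene, moved with them, so that control replicate 4 lay among the miR-106b libraries on this axis and miR-106b replicate 4 lay among the control libraries.

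The markers of the Ago2-IP libraries were those of heart muscle. By counts, not scaled to transcript length, the most abundant genes were Myh6, the alpha heavy chain of cardiac myosin, Mb (myoglobin), Atp2a2, the calcium pump of the sarcoplasmic reticulum, Actc1 (cardiac actin) and Col1a1, a chain of collagen I. Myh6 alone took 3.67 to 4.05% of the counts of a library. The 25 markers of cardiac muscle summed to 103394 to 110677 CPM in the control and 100023 to 109766 CPM in the miR-106b libraries, and 1 of them, Sln, was at 0. Ren1 had 0 counts in all 8 Ago2-IP libraries, which allows up to 0.107 CPM over the 8 libraries together, and Akr1b7, the other marker most particular to renin cells, had 1 count. Ace and Crip1, which other cells also express, made up the remaining 315 to 344 CPM of the renin cell list in the control and 320 to 334 CPM in the miR-106b libraries. These values go against the label of JG cells, so the libraries are called Ago2-IP libraries here. Fibroblast markers summed to 18379 to 18951 CPM in the control and 18141 to 18613 CPM in the miR-106b libraries, none of the 6 at 0. Endothelial markers lay at 1239 to 1289 and 1164 to 1292 CPM, mural and smooth muscle markers at 1002 to 1034 and 957 to 1048 CPM, leukocyte markers at 580 to 602 and 554 to 620 CPM, and red cell markers at 135 to 147 and 125 to 157 CPM. Kidney epithelium markers stayed at 5.80 CPM or less in each library, with Slc34a1 at 0. No marker list passed adjustment between the transfections (smallest adjusted exact permutation p 0.446). This comparison could hardly have passed one. The smallest exact p possible was 0.0286, and the total count and mitochondrial share, which reached it, stood at 0.186 after adjustment. The ranges above are therefore the description of these markers. In bulk RNA fewer cells of a type and less RNA per cell cannot be told apart.

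With edgeR's quasi-likelihood test, 0 of 13941 genes (0%) passed an adjusted p of 0.05 between miR-106b and control Ago2-IP RNA, and the smallest adjusted p was 0.138. At an unadjusted p under 0.05 there were 788 genes, 5.65% of those tested, 432 higher (3.1%) and 356 lower (2.55%) with miR-106b. The excess of higher genes came with the filter: of the 432, 124 passed it only through the miR-106b libraries, and among the 12958 genes that passed in both groups 308 were higher and 334 lower. In 461 genes (3.31%) the 4 miR-106b libraries all lay on 1 side of the 4 control libraries. The count of 0 depended on the test and on single libraries. DESeq2 called 2 genes, edgeR's likelihood ratio test 23 and limma voom 0. Without miR-106b replicate 4 the quasi-likelihood test called 38 genes, without miR-106b replicate 1 it called 4, without control replicate 4 it called 2, and without any other library 0. Of the 38 genes, 35 were higher with miR-106b, 12 were protein coding and 26 were not, and the median level was 7.14 CPM. A miR-106b-5p site was found in 2 of them. Sites were searched only in 3′UTRs of protein coding transcripts, so genes without such a 3′UTR could not have one. Among all members with an annotated 3′UTR, 14.9% held a site. The 4 genes called without miR-106b replicate 1 were all lower with miR-106b and were Cox5a, Gnas, Cebpb and Tpt1. The median log2 change over all genes was 0.00019, and the middle 95% of the 6416 genes with at least 20 CPM changed by between -0.22 and 0.26 (0.861-fold to 1.19-fold).

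How small a change could be excluded was read from the 95% interval of each gene's log2 change, whose margin is the distance from the estimate to either end. A change was excluded for a gene when its whole interval lay inside that change in both directions. The median margin was 0.35 on the log2 scale, a 1.27-fold change. The interval excluded a 2-fold change for 10718 genes (76.9%), a 1.5-fold change for 8161 (58.5%), a 3-fold change for 12599 (90.4%) and a 1.2-fold change for 3132 (22.5%). These shares depended on the expression level.

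Below 2 CPM the libraries excluded little. The 155 genes with a mean under 1 CPM had a median margin of 2.98-fold, and none excluded a 2-fold change while 5 excluded a 3-fold change. From 1 to 2 CPM, where the median gene had 42 counts over the 8 libraries, the median margin was 2.31-fold, 0 of 1188 genes excluded a 2-fold change and 41.0% excluded a 3-fold change. Cdc6, which loads the replicative helicase on DNA, was among the more precise genes of this class, at 1.79 CPM with a margin of 2.11-fold and an interval from 0.505-fold to 2.24-fold.

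Between 2 and 20 CPM the exclusion of a 2-fold change went from the exception to the rule. From 2 to 5 CPM the median margin was 1.80-fold and 28.7% of 2035 genes excluded a 2-fold change. Ccne1 (cyclin E1) was typical there, at 2.72 CPM with an interval from 0.530-fold to 1.77-fold. From 5 to 10 CPM the median margin was 1.46-fold, and 85.0% of 1874 genes excluded a 2-fold and 18.1% a 1.5-fold change. Rb1, the retinoblastoma protein that restrains E2F factors, had 6.80 CPM and an interval from 0.605-fold to 1.30-fold. From 10 to 20 CPM the median margin was 1.29-fold, and 97.1% of 2273 genes excluded a 2-fold and 69.7% a 1.5-fold change. Rrm1, the large subunit of ribonucleotide reductase, had 13.6 CPM and an interval from 0.741-fold to 1.24-fold.

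In each class above 20 CPM the median gene excluded any change beyond 1.27-fold. From 20 to 50 CPM the median margin was 1.19-fold, 96.0% of 2920 genes excluded a 1.5-fold and 12.8% a 1.2-fold change, and the interferon-induced Oasl2 (33.3 CPM) had an interval from 0.774-fold to 1.10-fold. From 50 to 100 CPM the median margin was 1.13-fold and 62.8% of 1679 genes excluded a 1.2-fold change, with Pgk1, a glycolytic enzyme, at 69.6 CPM and 0.796-fold to 1.01-fold. From 100 to 200 CPM it was 1.09-fold and 91.9% of 987 genes excluded a 1.2-fold change, with the TGF-beta receptor Tgfbr2 at 127 CPM and 0.947-fold to 1.13-fold. At 200 CPM or more it was 1.07-fold and 96.0% of 830 genes excluded a 1.2-fold change, with App, the amyloid precursor protein, at 373 CPM and 0.937-fold to 1.07-fold.

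**Figure D1:**
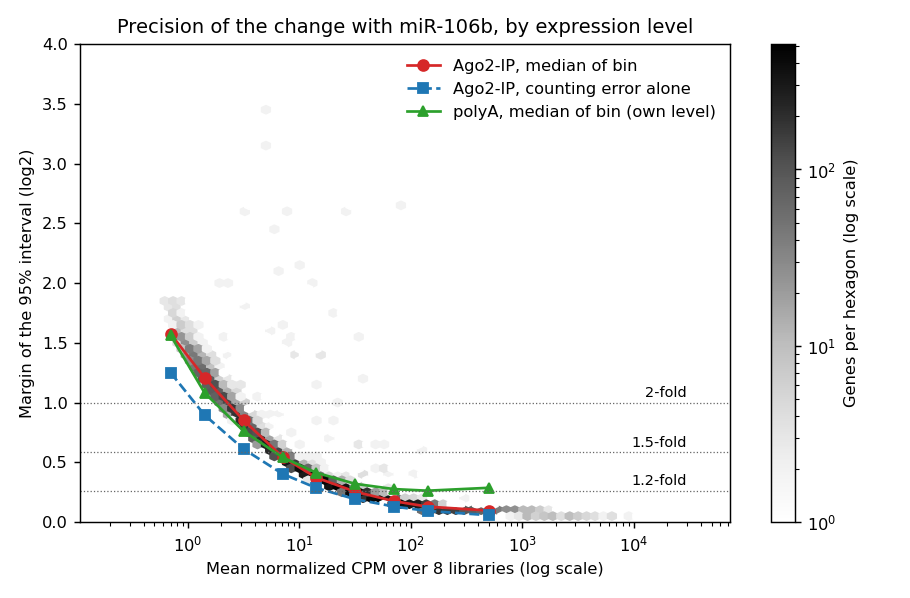
Margin of the 95% interval (log2, vertical axis) against mean normalized CPM over the 8 Ago2-IP libraries (horizontal, log scale), with grey hexagons for counts of genes, red points for medians of the expression classes, blue squares for the margin that counting error alone would give, and green triangles for polyA RNA by its own level. The red median falls from 1.58 under 1 CPM to 0.097 at 200 CPM or more, while the green one levels off near 0.26 to 0.29 above 50 CPM.

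**Figure D2:**
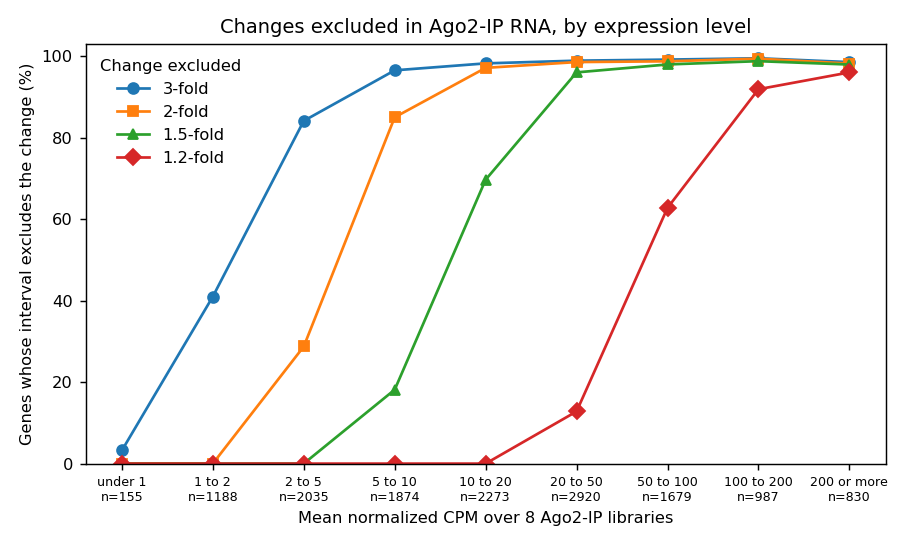
Percent of genes whose 95% interval excludes a 1.2-fold, 1.5-fold, 2-fold or 3-fold change (vertical axis) in each class of mean normalized CPM (horizontal axis, with the number of genes). The 2-fold line rises from 0% at 1 to 2 CPM to 97.1% at 10 to 20 CPM, and the 1.2-fold line from 0% at 10 to 20 CPM to 91.9% at 100 to 200 CPM.

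Seen as a threshold, in windows of 501 genes ordered by level, 50% of genes first excluded a 2-fold change at a mean of 4.08 CPM (114 counts over the 8 libraries) and 90% at 8.06 CPM (225 counts). For a 1.5-fold change the levels were 10.6 and 21.3 CPM, and for a 1.2-fold change 56.7 and 116 CPM, the last reached by 1539 genes. For a 3-fold change they were 1.63 and 3.50 CPM. These intervals hold gene by gene and are not adjusted over genes. With 2 one-sided tests per gene, adjusted over all genes, 11112 genes excluded a 2-fold and 8315 a 1.5-fold change. Before adjustment, one-sided tests are less strict for a gene than the 95% interval, which excluded these changes for 10718 and 8161 genes. The counts therefore cannot be compared to show what adjustment over genes does to the exclusions.

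Poisson error on the group sums alone, without any difference between replicates, gave a median margin of 0.26 on the log2 scale, and the fitted margin was 1.33 times as wide in the median gene. The factor was 1.27 under 1 CPM, 1.31 from 20 to 50 CPM and 1.67 at 200 CPM or more, where counting error alone would give a 1.04-fold margin. polyA RNA behaved otherwise at high level. For the same genes ordered by their polyA level, its median margin was 1.46-fold from 5 to 10 CPM, like that of Ago2-IP RNA, but 1.22-fold at 200 CPM or more against 1.07-fold in Ago2-IP RNA. Its median over all 13941 genes was 1.32-fold.

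The filter shaped the results at low levels. Of the members, 12958 passed in both groups, 606 passed only through the miR-106b libraries (median 1.37 CPM) and 377 only through the control libraries (median 1.32 CPM). The filter favours genes that are higher in the group through which they passed. The median log2 changes of these sets were 0.89 and -0.45, 585 of the 606 and 46 of the 377 were higher with miR-106b, and none of either set excluded a 2-fold change. Their differences are not read as results.

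**Figure D3:**
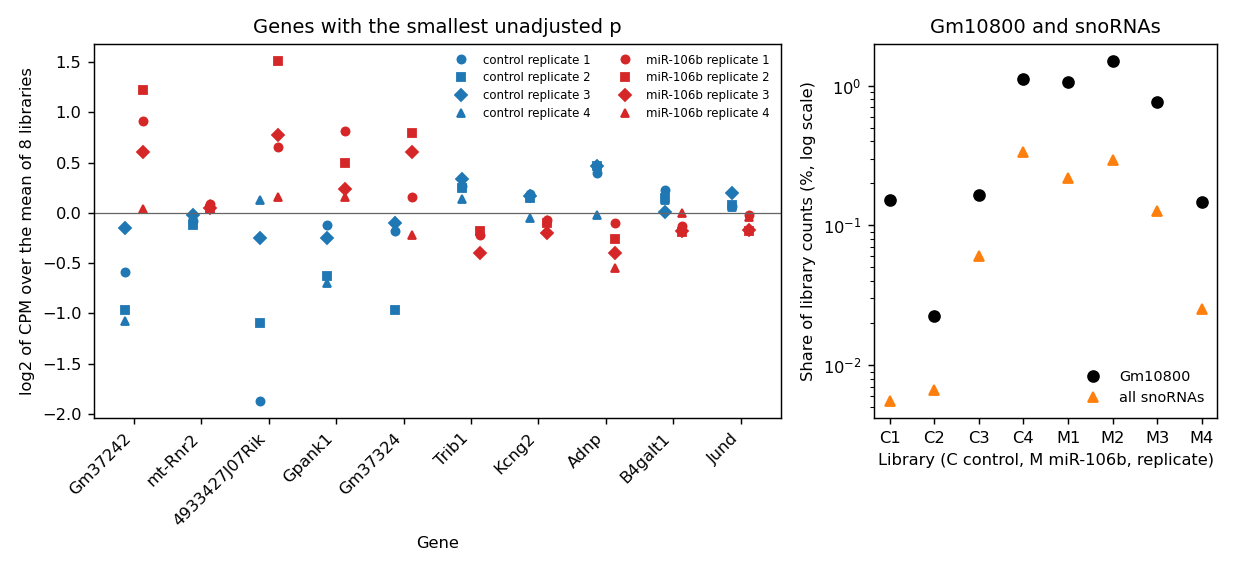
Left, log2 of normalized CPM over the geometric mean of the 8 Ago2-IP libraries for the 5 genes of at least 5 CPM with the smallest unadjusted p in each direction, blue for control and red for miR-106b, with 1 shape per replicate. Right, share of library counts (%, log scale) of Gm10800 and of all snoRNAs, where control replicate 4 (C4, 1.12% Gm10800) lies with miR-106b replicates 1 to 3 and miR-106b replicate 4 (M4, 0.148%) with the other control libraries.

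None of the genes with the smallest p passed the adjusted threshold, and the 5 in each direction with at least 5 CPM are described here. Under at least 1 alternative 8 of these 10 passed it, all but Gpank1 and Jund. Gm37242 passed in 4 alternatives, with an adjusted p of 0.0127 with at least 10 counts in every library, 0.0104 by the likelihood ratio test, 0.00394 with no filter on low counts and 0.00374 without miR-106b replicate 4. Trib1, Kcng2 and mt-Rnr2 passed in 3 alternatives each. Trib1, a pseudokinase that recruits an E3 ligase to C/EBP factors, had 51.7, 50.8, 54.1 and 47.2 normalized CPM in the control libraries and 36.9, 37.9, 32.5 and 37.8 in the miR-106b libraries. All miR-106b libraries were below all control libraries, and the log2 change was -0.49 ± 0.10 (SE, n = 4 per group, adjusted p = 0.138 by edgeR). Adnp, a nuclear homeobox protein, had 24.8, 26.0, 26.0 and 18.6 CPM in the control and 17.5, 15.7, 14.3 and 12.9 CPM in the miR-106b libraries, a log2 change of -0.66 ± 0.16 (adjusted p = 0.247). The groups again did not overlap. Kcng2, a modifier subunit of potassium channels, had 309, 300, 303 and 260 CPM against 258, 252, 235 and 257, a log2 change of -0.22 ± 0.053 (adjusted p = 0.222). Control replicate 4 was close to the miR-106b libraries for it.

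B4galt1, a galactosyltransferase of the Golgi, had 169, 161, 146 and 158 CPM in the control and 132, 127, 128 and 145 CPM in the miR-106b libraries (log2 change -0.25, adjusted p = 0.290). Jund, a subunit of the AP-1 transcription factor, had 230, 232, 252 and 229 against 217, 194, 195 and 214 CPM (log2 change -0.21, adjusted p = 0.419). The longest 3′UTR of none of these 5 genes holds the miR-106b-5p site.

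Of the 5 genes higher with miR-106b, only Gpank1 was annotated as protein coding. Gm37242, a predicted gene without a given biotype on chromosome 1, had 4.00, 3.07, 5.41 and 2.84 CPM in the control and 11.3, 14.0, 9.09 and 6.15 CPM in the miR-106b libraries. Its log2 change was 1.41 ± 0.29 (adjusted p = 0.138), with an interval from 1.77-fold to 4.00-fold, and miR-106b replicate 4 was the lowest of its group. mt-Rnr2, the large mitochondrial ribosomal RNA, had 2711, 2623, 2810 and 2798 CPM against 3048, 2940, 2967 and 3037, a log2 change of 0.13 ± 0.031 (adjusted p = 0.222). This difference went with the mitochondrial share of counts, whose groups did not overlap either. The antisense transcript 4933427J07Rik had 1.14, 1.95, 3.52 and 4.59 CPM in the control and 6.61, 11.9, 7.14 and 4.68 CPM in the miR-106b libraries (log2 change 1.41, adjusted p = 0.358), and since the libraries do not keep strand its reads cannot be told apart from those of an overlapping gene. Gpank1, a protein with ankyrin repeats, had 9.13, 6.42, 8.38 and 6.12 against 17.5, 14.0, 11.7 and 11.1 CPM (log2 change 0.85, adjusted p = 0.375). Gm37324, another gene without a given biotype, had 12.0, 6.98, 12.7 and 12.9 against 15.2, 23.6, 20.8 and 11.7 CPM, and its groups overlapped (log2 change 0.67, adjusted p = 0.632).

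A high level did not guarantee precision. Of 3496 genes with at least 50 CPM, 42 did not exclude a 2-fold change, and they were 8 of 8 snoRNAs, 11 of 14 RNAs of other classes, 4 of 17 long noncoding genes, 3 of 10 genes without a biotype and 16 of 3447 protein coding genes. Gm10800 was the most abundant of the 42. It had 1521, 225, 1647 and 11268 CPM in the control and 10674, 15106, 7731 and 1492 CPM in the miR-106b libraries, so that its log2 change of 1.25 ± 1.25 (adjusted p = 0.944) had an interval from 0.290-fold to 19.6-fold. The limit was 54.3-fold without control replicate 4, 529-fold with a replicate block and 7.60-fold without robust estimation. Gm10801, Gm10717, Gm11168 and Gm10719, predicted genes of the same kind among which reads may be shared, reached limits of 16.1-fold to 17.9-fold. The RNA subunits of RNase P (Rpph1, 1699 CPM) and RNase MRP (Rmrp, 306 CPM) had intervals that reached 18.6-fold and 12.3-fold. Malat1, a nuclear long noncoding RNA, had a limit of 2.46-fold at 2343 CPM. Among protein coding genes with at least 20 CPM the median margin was 1.15-fold and 99.4% of 6312 excluded a 2-fold change, whereas the 16 snoRNAs at that level had a median margin of 9.39-fold and none excluded it.

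A list of 37 known and predicted targets of the miR-17 and miR-106b family was drawn up with earlier results of these data known. All 37 were measured, and none passed the adjusted threshold. At an unadjusted p under 0.05, 0 were higher and 2 lower, against 3.1% and 2.55% of all genes and 308 and 334 of the 12958 that passed the filter in both groups. Their median log2 change was -0.007 against 0.00019 over all genes tested. The intervals excluded a 2-fold change for 36 of 37 targets, a 1.5-fold change for 34 and a 1.2-fold change for 20. In polyA RNA 9 of the same genes were higher and 11 lower with miR-106b after adjustment, against 19.9% and 23.2% of all genes.

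The 3 targets measured most precisely carry the sites printed above. Mfn2, which fuses mitochondrial outer membranes, had 1168, 1178, 1166 and 1105 CPM in the control and 1059, 1091, 1123 and 1175 CPM in the miR-106b libraries. These groups overlapped, and with a log2 change of -0.054 ± 0.038 (adjusted p = 0.911) any rise above 1.02-fold or fall below 0.914-fold lay outside the interval. Vegfa, the endothelial growth factor, had 651, 651, 634 and 603 CPM against 633, 598, 631 and 665, with an interval from 0.938-fold to 1.06-fold. Fyco1, an adaptor for the transport of autophagosomes, had 541, 563, 551 and 525 CPM against 541, 519, 544 and 558, with an interval from 0.935-fold to 1.05-fold. For these 3 genes, each with 1 or 2 sites in the longest 3′UTR, a 1.2-fold rise in Ago2-IP RNA lay outside the interval. With all 16 libraries in the fit the largest change not excluded was 1.26-fold for Mfn2 and 1.19-fold for Vegfa and Fyco1.

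The 3 targets with the largest differences did not pass adjustment either. Hif1a, the oxygen-regulated transcription factor, had 65.4, 61.7, 58.4 and 58.6 CPM in the control and 52.9, 51.0, 49.4 and 50.6 CPM in the miR-106b libraries. Its groups did not overlap, and the log2 change was -0.26 ± 0.092 (adjusted p = 0.642). Kat2b, a histone acetyltransferase, had 57.7, 62.0, 53.0 and 58.4 against 54.8, 50.1, 35.1 and 55.9 CPM (log2 change -0.24 ± 0.11, adjusted p = 0.854), with miR-106b replicate 3 low. E2f5, a repressive E2F factor, was the only target on the list that did not exclude a 3-fold change. It had 0.856, 2.51, 1.35 and 1.75 CPM against 2.33, 2.62, 3.90 and 0.585 CPM and an interval from 0.684-fold to 3.03-fold.

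**Figure D4:**
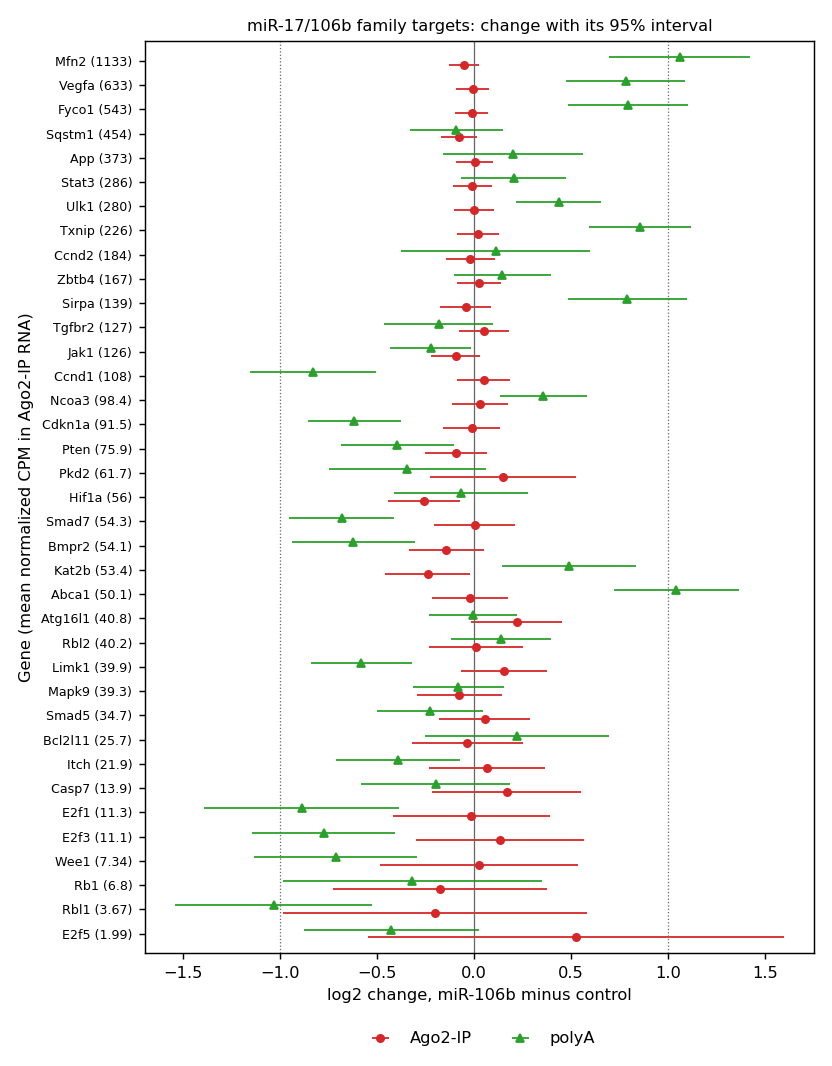
log2 change with miR-106b and its 95% interval (horizontal axis) for the 37 listed targets of the miR-17 and miR-106b family, ordered by mean CPM in Ago2-IP RNA, given in parentheses, with red circles for Ago2-IP RNA and green triangles for polyA RNA and dotted lines at a 2-fold change. The Ago2-IP intervals of all targets but E2f5 lie between the dotted lines, and those of the abundant genes at the top are the narrowest.

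Over the transcriptome, genes with a seed site did not stand apart from the rest. Of the members with an annotated 3′UTR, 1896 had a 7mer-m8 or 8mer site and 10815 had none, so that 14.9% held one. The median log2 change was 0.0035 with a site and -0.0074 without, a difference of 0.011. It was 0.0032 without miR-106b replicate 2, 0.0066 without miR-106b replicate 1 and up to 0.012 with another library left out. With no filter on low counts it was much smaller, and with Gm10800 as covariate it turned negative. Measured in each library against the mean of the 8, this difference was -0.013, -0.011, 0.0047 and 0.0034 in the control and 0.017, 0.016, -0.0026 and -0.0023 in the miR-106b libraries. The groups overlapped, and control replicates 3 and 4 lay above miR-106b replicates 3 and 4. Sites of 3 miRNAs that were not transfected gave differences of the same order: 0.0037 for let-7a-5p, 0.011 for miR-21a-5p and 0.0034 for miR-24-3p.

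Among the genes with a site, 54 were higher and 55 lower at an unadjusted p under 0.05, together 5.75% against 5.65% of all genes. The median log2 change was 0.0022 over 582 genes with an 8mer site and 0.0012 over 295 genes with 2 or more sites. Of the genes with a site, 1589 (83.8%) excluded a 2-fold and 1228 (64.8%) a 1.5-fold change. In the classes from 2 CPM the median was higher with a site than without in 5 of 7. It was 0.028 against 0.0049 from 5 to 10 CPM, 0.016 against 0.0027 from 10 to 20 CPM and -0.024 against -0.026 at 200 CPM or more. The median was lower with a site from 2 to 5 CPM (0.076 against 0.083) and from 50 to 100 CPM (-0.019 against -0.014). The classes under 2 CPM, where the medians with a site were 1.11 and 0.32 and those without 0.16 and 0.13, lie at the level of the genes that passed the filter through 1 group and are not read. These differences within classes were not tested.

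The RISC itself was measured through 24 genes for Argonaute proteins, miRNA processing and decay of targeted mRNA. None of the 24 had an unadjusted p under 0.05, against 5.65% of all genes. Their median log2 change was -0.022, and all 24 excluded a 2-fold and 22 a 1.5-fold change. Ago2, the immunoprecipitated protein's own mRNA, had 137, 118, 130 and 128 CPM in the control and 145, 136, 134 and 144 CPM in the miR-106b libraries. The groups overlapped at control replicate 1, with a log2 change of 0.12 ± 0.063 (adjusted p = 0.877), the smallest p of this list. Pabpc1, the poly(A)-binding protein that stabilises mRNA, had the narrowest interval, from 0.883-fold to 1.01-fold. After adjustment 1 of the 24 genes was higher and 16 were lower in polyA RNA, against 19.9% and 23.2% of all genes.

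A list of renin control and cAMP signalling held receptors, cyclases, phosphodiesterases and transcription factors. Of 19 measured genes, 18 excluded a 2-fold change, all but Vdr, the vitamin D receptor (4.37 CPM, 0.898-fold to 2.42-fold, named after its values were seen). The median log2 change of the list was 0.011. At an unadjusted p under 0.05, 0 genes were higher and 2 lower, against 3.1% and 2.55% of all genes. Gnas, the stimulatory G protein alpha subunit that activates adenylate cyclase, had the smaller p of these, with 359, 355, 319 and 337 CPM in the control and 316, 270, 225 and 281 CPM in the miR-106b libraries. Its groups did not overlap, and the log2 change was -0.33 ± 0.094 (adjusted p = 0.687). The replicate number taken as a block made this the only gene called, at an adjusted p of 0.0407, although same-numbered libraries gave no sign of pairing. Gnas also passed with no filter on low counts (adjusted p = 2.23e-05) and without miR-106b replicate 1. Esrra, an estrogen-related receptor also named after its values were seen, had 304 CPM and groups that did not overlap, and its log2 change of -0.093 did not pass adjustment (adjusted p = 0.877). Adrb1, the other of the 2 lower genes (log2 change -0.19), and Ppard (-0.065) were named in the same way, and their groups did not overlap either. Non-overlap thus held for 4 of the 19 genes, against 3.31% of all genes, which was not tested. Adcy6, an adenylate cyclase, had the narrowest interval of the list, from 0.945-fold to 1.07-fold at 339 CPM.

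Of the genes named from the study, 7 had counts enough to be tested. E2f1, an activating E2F factor, had 8.85, 10.9, 12.7 and 13.1 CPM in the control and 10.5, 13.1, 11.4 and 10.2 CPM in the miR-106b libraries. These overlapped fully, with an interval from 0.747-fold to 1.31-fold. Pde3b, a phosphodiesterase that degrades cAMP, had 4.85, 1.95, 8.11 and 4.81 against 4.67, 7.28, 3.57 and 4.98 CPM, which left changes from 0.650-fold to 1.68-fold inside the interval. Without control replicate 3, the highest library, the interval of Pde3b reached 2.24-fold and a 2-fold change was not excluded. Pde10a, another phosphodiesterase, had 5.71, 6.14, 4.06 and 5.25 against 5.83, 7.28, 5.85 and 6.15 CPM, with an interval from 0.798-fold to 1.78-fold. The transcription factor Creb1 (15.8 CPM) had an interval from 0.796-fold to 1.37-fold, the nuclear receptor Pparg (5.04 CPM) from 0.714-fold to 1.77-fold, and the ribosomal protein gene Mrpl32 (9.73 CPM) from 0.838-fold to 1.55-fold. For Creb1 the limit was 1.71-fold with Gm10800 as covariate and 1.58-fold without control replicate 2, so that a 1.5-fold change was not excluded there. Ppargc1a, a coactivator of PPAR receptors, was the best measured of them, with 48.2, 47.7, 52.2 and 47.4 CPM against 46.7, 46.9, 53.6 and 44.5 CPM and an interval from 0.853-fold to 1.12-fold. With all 16 libraries in the fit its limit was 1.33-fold, against 1.17-fold in the fit of 8. Ren1 could not be tested at 0 counts.

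Genes that changed in polyA RNA were set beside their Ago2-IP intervals. In polyA RNA 6000 of the 13941 genes (43%) passed an adjusted p of 0.05, and 1986 (14.2%) did so with at least a 2-fold change. Cardiac markers summed to 23249 to 32641 CPM in the polyA control and 44770 to 76623 CPM in the polyA miR-106b libraries, which did not overlap. Markers of other cell types also did not overlap between the polyA groups and were higher with miR-106b, at 267 to 399 against 520 to 934 CPM for endothelium, 140 to 204 against 277 to 426 CPM for leukocytes, 28.5 to 43.6 against 65.0 to 113 CPM for red cells and 11113 to 13045 against 14679 to 27063 CPM for fibroblasts. The renin cell list did so too, at 70.9 to 102 against 131 to 235 CPM. Mural and smooth muscle markers overlapped, at 1406 to 1594 against 1216 to 1713 CPM, as did kidney epithelium markers, at 13.2 to 27.2 against 3.51 to 16.4 CPM. The part of these cell types in the polyA changes was not tested. Of the 1388 genes at least 2-fold higher in polyA RNA, the Ago2-IP interval excluded a 2-fold rise for 1276 (91.9%) and the gene's own polyA change for 1360 (98.0%). Of the 598 genes at least 2-fold lower, it excluded a 2-fold fall for 481 (80.4%) and the gene's own polyA change for 550 (92.0%). Over all genes tested the interval excluded a 2-fold change in the direction of the polyA change for 87.1%, so that 91.9% lay near and 80.4% below this background. Over all genes it excluded the gene's own polyA change for 57.3%, most of those changes being smaller than 2-fold. The sets differed in level, with a median of 24.2 CPM in Ago2-IP RNA for the higher and 5.36 CPM for the lower genes. The median Ago2-IP change was -0.026 for the former and 0.041 for the latter, against 0.00019 over all genes.

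PPAR targets, mostly genes of fatty acid oxidation, were the most precisely measured list. All 20 excluded a 2-fold and 19 a 1.5-fold change in Ago2-IP RNA, with a median log2 change of -0.018. In polyA RNA 20 of 20 were higher after adjustment, against 19.9% of all genes, with a median log2 change of 1.04. Lpl, lipoprotein lipase, had 2732, 2751, 2606 and 2611 CPM against 2594, 2508, 2702 and 2793 CPM in Ago2-IP RNA, an interval from 0.946-fold to 1.04-fold, and its polyA change was 1.22 on the log2 scale.

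The direct test of the difference, Ago2-IP change minus polyA change in 1 fit of 16 libraries, gave -1.37 ± 0.21 for Lpl, -1.34 ± 0.20 for Fabp3, a fatty acid carrier of muscle, -1.23 ± 0.18 for Ech1, an enzyme of fatty acid oxidation, -1.38 ± 0.21 for Adcy5, a cardiac adenylate cyclase, and -1.25 ± 0.18 for Mfn2. Over all genes this difference passed adjustment for 29.5%. The largest adjusted p of the 5 genes was 6.8e-05 (edgeR quasi-likelihood test), and their Ago2-IP intervals reached 1.13-fold at most in either direction in the fit of 8 libraries. In the fit of 16 libraries, from which the differences come, the limits were 1.31-fold for Adcy5, 1.26-fold for Lpl and Mfn2 and 1.23-fold for Fabp3 and Ech1. These 5 were named because they changed at least 2-fold in polyA RNA, so their differences were largely set by that choice. Ppargc1a differed by -1.35 ± 0.26 (adjusted p = 0.000478) and Pde10a by 1.16 ± 0.28 (adjusted p = 0.00346). Their polyA changes were 1.19 and -1.04 on the log2 scale. The study picked Pde10a, E2f1 and Pde3b through their Ago2-IP to polyA ratio in these same libraries, and Ppargc1a through its rise in polyA RNA. The differences of these genes are therefore no independent results. For E2f1 (0.74, adjusted p = 0.0927), Creb1 (0.60, 0.0892), Pde3b (1.05, 0.118), Pparg (-0.71, 0.249) and Mrpl32 (0.14, 0.766) the difference did not pass. With library size only or TMM within each RNA kind it passed for E2f1 and Creb1, and with a replicate block within RNA kind for E2f1. It also passed with 1 library left out for Pde3b (without Ago2-IP control replicate 3, adjusted p = 0.0426), for E2f1 (without polyA miR-106b replicate 1, 0.00695) and for Creb1 (leaving out replicate 2 of either Ago2-IP group, smallest 0.0196).

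E2F targets, genes of DNA replication, were scarcer and less precise. Of 18 measured, 15 excluded a 2-fold and 9 a 1.5-fold change, and the median log2 change was -0.054. At an unadjusted p under 0.05, 1 was lower and 0 were higher, against 2.55% and 3.1% of all genes. In polyA RNA all 18 were lower after adjustment, against 23.2% of all genes, with a median of -1.61. Mcm2, a subunit of the replicative helicase, had 22.8, 24.0, 21.1 and 23.8 CPM in the Ago2-IP control and 19.4, 23.6, 26.0 and 23.7 CPM in the miR-106b libraries, with an interval from 0.833-fold to 1.23-fold. Cdk1, the mitotic kinase, had 5.99, 3.35, 5.68 and 4.81 against 3.50, 3.20, 1.95 and 2.93 CPM. Its groups overlapped in 1 library, and the interval from 0.350-fold to 0.967-fold did not exclude a 2-fold fall (adjusted p = 0.862).

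**Figure D5:**
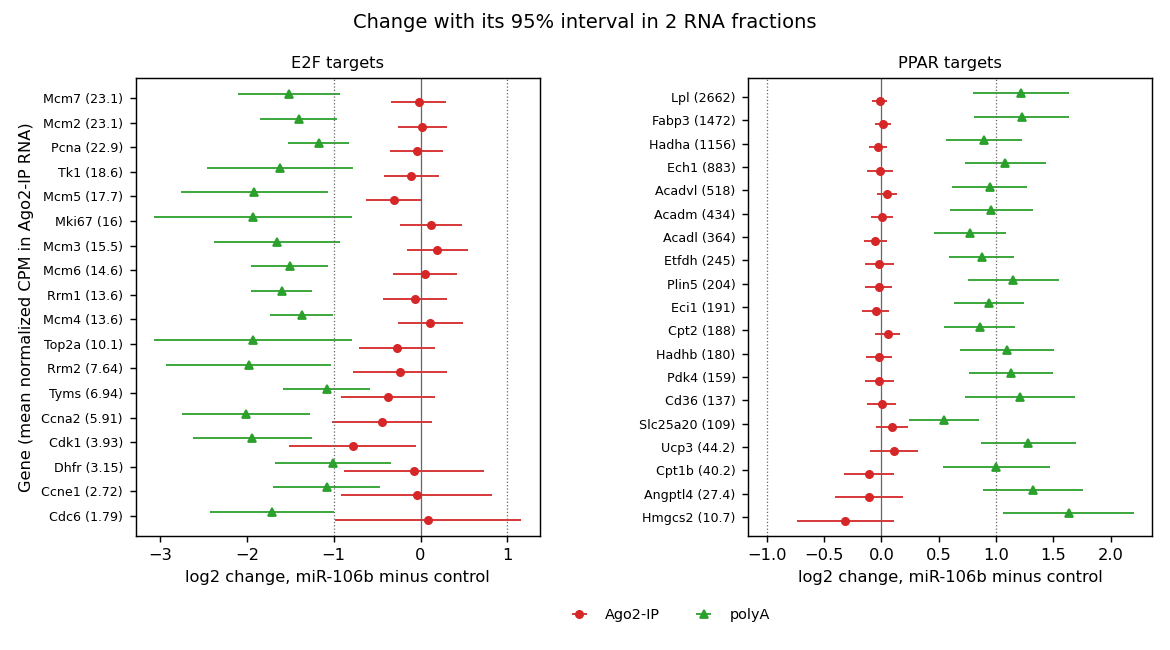
log2 change with miR-106b and its 95% interval (horizontal axis) for 18 E2F targets (left) and 19 of the 20 PPAR targets (right), ordered by mean CPM in Ago2-IP RNA, given in parentheses, with red circles for Ago2-IP RNA and green triangles for polyA RNA and dotted lines at a 2-fold change. Over the whole lists the Ago2-IP medians are -0.054 and -0.018, against -1.61 and 1.04 in polyA RNA.

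Interferon response genes, which double-stranded RNA can induce in transfected cells, had a median log2 change of 0.029 in Ago2-IP RNA. Of 18, 16 excluded a 2-fold and 11 a 1.5-fold change. At an unadjusted p under 0.05, 0 were higher and 1 lower, against 3.1% and 2.55% of all genes. In polyA RNA 11 passed adjustment as higher, against 19.9% of all genes. Irf7, a transcription factor of this response, had 90.2, 92.1, 84.4 and 95.3 CPM against 75.4, 81.8, 88.0 and 97.8 CPM, with an interval from 0.852-fold to 1.06-fold. Ifit3, an interferon-induced antiviral protein, was the gene that was lower, with 8.85, 5.86, 8.11 and 7.21 CPM against 3.89, 5.82, 5.85 and 4.39 CPM (log2 change -0.58 ± 0.28, adjusted p = 0.869), and its groups did not overlap.

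Reference genes gave a scale for these values. All 15 excluded a 2-fold and 14 a 1.5-fold change, and the median log2 change was -0.018. None had an unadjusted p under 0.05, against 5.65% of all genes. Actb (cytoplasmic actin) had 1841, 1844, 1894 and 1883 CPM in the control and 1794, 1814, 1847 and 1905 CPM in the miR-106b libraries, with an interval from 0.942-fold to 1.03-fold. The most abundant genes had narrow intervals too. Myh6 had 40193, 40514, 39324 and 38142 CPM against 37997, 36906, 39258 and 40643 CPM, an interval from 0.938-fold to 1.02-fold. Mb, Actc1 and Col1a1 had intervals within 0.945-fold to 1.02-fold. With all 16 libraries in the fit the limits were wider, 1.30-fold for Myh6, 1.28-fold for Mb and Actc1 and 1.27-fold for Col1a1, and by the likelihood ratio test 1.16-fold to 1.17-fold for these 4 genes. Atp2a2 had 11776, 11901, 11153 and 10794 CPM against 11106, 10015, 10221 and 10861 CPM, and its interval from 0.870-fold to 0.984-fold did not include 1 while the gene did not pass adjustment (adjusted p = 0.772). With no filter on low counts Atp2a2 was called lower (adjusted p = 0.011).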

How the data were processed

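RNA sequencing libraries of Ago2-immunoprecipitated RNA and of polyA RNA were single-end and not strand-specific. Per the labels and the study's methods, ribosomal reads were discarded, the rest were placed on GRCm38 transcripts by TopHat2, and HTSeq made the gene table. The sources disagree on the TopHat2 version. What the authors deposited are raw counts, not normalized, and library totals ran from 2579086 to 4616424.

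The fits used edgeR 4.0.16, limma 3.58.1 and DESeq2 1.42.0 under R 4.3.3. Libraries were scaled by TMM. The 8 Ago2-IP libraries were fitted alone with the robust quasi-likelihood F test, two-sided. Benjamini-Hochberg adjusted p under 0.05 was a call. The standard error was the log2 change divided by the square root of F, and the 95% interval used the gene's t quantile. The differences between RNA kinds came from the interaction in a fit of all 16 libraries. Library values were compared by exact permutation over 70 relabellings. Intervals cover the spread between libraries, and floors of 3 counts cover counting error only. The step was tested on simulated data.

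Genes were named by these rules: at least 5 CPM on average and among the 5 smallest p in each direction; discussed by the study; of the targets, the 3 narrowest intervals and 3 largest changes; of each other list, the narrowest interval and the smallest p; in each expression class, the listed gene nearest the median margin; the 5 most abundant genes and Gm10800; and 5 listed genes changed at least 2-fold in polyA RNA. Members, lists and tests were chosen with earlier results of these data known. Figures were drawn with matplotlib 3.10.9. The values of 1 gene named by these rules are not reported here.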

Additional observations from a re-analysis of the deposited data

Results flagged for a closer look

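In groups of 4 libraries, a library far from the other 3 was looked for in 134 groups of values, of which chance flags about 1 in 20, and 10 were found. In 5 of the 10 it was control replicate 4: it was highest for Gm10800 (11268 normalized CPM, 1.12% of counts) and for snoRNAs (0.337% of counts), and lowest for Adnp (18.6 normalized CPM) and for the summed fibroblast markers (18379 CPM). Control replicate 2 was lowest for Gm37324 (6.98 normalized CPM), and control replicate 3 was highest for Jund (252 normalized CPM) and Ppargc1a (52.2 normalized CPM). Among the miR-106b libraries, replicate 3 was lowest for Trib1 (32.5 normalized CPM) and replicate 2 for Creb1 (11.6 normalized CPM).

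The change with miR-106b differed between Ago2-IP and polyA RNA, by the test of the difference itself, for 7 of 12 genes looked at, against 29.5% of all genes tested. Of the 7, Mfn2, Lpl, Adcy5, Fabp3 and Ech1 were named because they changed at least 2-fold in polyA RNA, so for them the difference was largely set by that choice and is no independent result. Ppargc1a and Pde10a were taken from the study, which picked them from these same libraries. They also changed at least 2-fold in polyA RNA (log2 change 1.19 and -1.04), so their differences are no independent results either. The Ago2-IP change minus the polyA change was 1.16 for Pde10a, -1.35 for Ppargc1a, -1.25 for Mfn2, -1.37 for Lpl, -1.38 for Adcy5, -1.34 for Fabp3 and -1.23 for Ech1 on the log2 scale. The markers of cardiac muscle, endothelium, leukocytes, red cells and fibroblasts also did not overlap between the transfections in polyA RNA, and their part was not tested.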

How the results depend on the processing

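The number of genes called in Ago2-IP RNA, 0 as reported, was 20 with no filter on low counts, 2 with at least 10 counts in every library, 2 by DESeq2 and 23 by edgeR's likelihood ratio test, and 0 to 38 when 1 library was left out. It stayed 0 under the other scalings, limma voom, all 16 libraries in the fit, Gm10800 as a covariate and protein coding genes alone. The cause was not tested. The median margin, 0.35 on the log2 scale, was 1.56 with no filter, 0.27 with at least 10 counts in every library, 0.37 with the filter on any of the 4 groups, 0.41 by DESeq2, 0.34 by the likelihood ratio test, 0.35 without robust estimation, 0.36 by limma voom with or without library weights, 0.39 with all 16 libraries, 0.39 with Gm10800 as covariate, 0.32 for protein coding genes, 0.32 for genes passing in both groups, and 0.37 to 0.38 with 1 library left out. In polyA RNA it was 0.37 to 0.46 with 1 library left out. The numbers of genes excluding a 2-fold or 1.5-fold change moved by less than 1.5 times under each alternative run, but as shares of the genes tested they were 38.8% and 29.7% with no filter, where 27811 genes were tested, against 76.9% and 58.5%. The difference between genes with and without a site was 0.00019 with no filter and -0.0016 with Gm10800 as covariate. The last 2 gene sets, protein coding genes and genes passing in both groups, were chosen after seeing the data.

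With the replicate number as a block, 1 gene (Gnas) was called and the median margin was 0.36. Deviations of same-numbered libraries correlated at -0.208, -0.596, -0.00762 and -0.736, which gave no sign of pairing. Whether same-numbered libraries were prepared together cannot be told from these values.

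The endothelial marker difference, -14.8 CPM, was 6.08 as a difference of medians and -32.0 to 10.6 with 1 library left out, that of leukocyte markers -7.20 to 14.7 and that of red cell markers -8.35 to 2.28. Ago2-IP change minus polyA change passed adjustment for Creb1 at 0.73 with library size only and 0.73 with TMM within each RNA kind, and for E2f1 at 0.88, 0.88 and, with a replicate block within RNA kind, 0.80. With 1 library left out it was -0.10 to 0.25 for Mrpl32, 0.46 to 0.80 for Creb1, 0.81 to 1.39 for Pde3b and 0.55 to 0.998 for E2f1, and it passed in at least 1 of these fits for Creb1, Pde3b and E2f1. Over all genes its median was -0.066, and 0.071 with library size only.

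The largest change not excluded for a named gene moved by more than the standard error of the gene's change in 56 cases and was wider in 46 of them, 22 with all 16 libraries in the fit and 16 by the likelihood ratio test. For Myh6 it was 1.30-fold with all 16 libraries against 1.07-fold.

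Changes are relative to TMM scaling, so a shift shared by all genes cannot be seen. From 2 to 5 CPM the median margin was 1.80-fold, where counting error alone would give 1.53-fold.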
